A study of Homo sapiens with 18 samples.

Results

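Heat shock proteins and their cochaperones were described across 6 conditions in LNCaP cells, a human prostate adenocarcinoma line. The 38 genes were chosen by gene symbol from the 20145 genes of the deposited count table: the heat shock transcription factors, members of the HSP70, HSP110, HSP40, HSP90, small heat shock protein and chaperonin families, and cochaperones. Treatment in serum-containing medium lasted 72 h. The 5 compounds were 1 µM of 2-77, 0.2 µM of ACBI, 2 µM of BD98, 10 µM of P-16 and 10 µM of ENZA, which is the antiandrogen enzalutamide; the vehicle was DMSO. Each condition had 3 libraries of messenger RNA. The series concerns inhibitors of the bromodomain of BRD7, but which protein each compound other than enzalutamide binds is not given in the labels. Each compound was given at 1 dose and the doses differed, so every contrast between compounds is also a contrast between doses. Whether replicates were separate cultures is not stated, so each p-value measures only the spread between these libraries.

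In the heat shock response, HSF1 is released from chaperones when unfolded proteins accumulate, binds heat shock elements in promoters and induces chaperone genes. HSP70 proteins bind exposed hydrophobic stretches of client proteins, HSP40 (J-domain) proteins deliver clients and stimulate the ATPase of HSP70, and nucleotide exchange factors such as HSP110 and BAG proteins release them. HSP90 and its cochaperones mature kinases and steroid hormone receptors. A cytosolic location does not hold for every gene here: as background, HSPA9, HSPD1, HSPE1 and DNAJA3 act in mitochondria, HSPA13 is microsomal, and HSPB11 is a subunit of the intraflagellar transport complex (IFT25) despite its name.

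The libraries held 16835113 to 36975052 counts. ACBI replicate 3 stood apart: 8.602% of its counts came from ribosomal RNA genes, against 0.639% to 2.09% in each other library, and it differed from ACBI replicates 1 and 2 with a chi-square of 128 and 108 per degree of freedom, where all other pairs of replicates gave 2.14 to 14.3. The counts of called genes with ACBI, and the genes whose value or call that library moved, are therefore also given without it. Of the luminal markers, KLK3 had 626.3 to 4325 CPM over the 18 libraries (CPM, counts scaled to library size with TMM factors). Of the markers of other cells, PTPRC of leukocytes reached at most 0.0543 CPM, CD68 of macrophages 4.12 to 7.13 CPM, KRT14 of basal cells at most 2.10 CPM, COL1A1 of fibroblasts 11.4 to 18.4 CPM and PDGFRB of mesenchymal cells 0.305 to 1.61 CPM. COL1A1 was at 17.6 to 18.4 CPM with 2-77 against 13.1 to 14.0 CPM with DMSO, and CD68 at 4.12 to 4.32 CPM with ENZA against 6.17 to 6.64 CPM with DMSO, and their part in the results was not tested. Of the neuroendocrine markers, CHGA reached at most 0.166 CPM, and SYP had 13.6, 14.5 and 15.04 CPM with ACBI, against 1.87 to 3.70 CPM in the other 15 libraries. The part of SYP-expressing cells in the ACBI results was not tested. In bulk RNA, fewer cells of a type and less RNA per cell cannot be told apart.

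Promoters were searched for pairs of inverted heat shock element units, GAANNTTC and TTCNNGAA, in the 250 bases before the start site in RefSeq. Each motif is its own reverse complement, so both strands are covered, and neighbouring matches may share a unit. Of the 38 genes, 33 had a promoter in the table, and 9 of them (27.3%) held at least 1 pair, against 8.62% of 11687 promoters of tested genes. A run of 3 units, GAANNTTCNNGAA or TTCNNGAANNTTC, stood in 3 of the 33 (CHORDC1, HSPA8 and DNAJB6; 9.09%), against 0.334% of the 11687. CHORDC1 held 6 matches and HSPA8 held 4. The RefSeq start of CHORDC1 lies 315 bases inside the gene as deposited, so its whole window of 250 bases lies within that gene. A match is a run of letters and not a measured binding site. Promoters are shown for the 6 genes that hold such pairs and are in the panel or named by size of change, as set out under the processing. CHORDC1, DNAJB6 and BAG2 also hold pairs and are not shown. HSPH1, DNAJB1, HSP90AA1, HSP90AB1, BAG3, HSPD1 and HSPE1 held no match in the window. Capitals mark the matches. Sequences are from RefSeq (GRCh38.p14), 5′ to 3′ on the strand of the gene, at chr11:123062137-123062386 for HSPA8 (minus strand), chr9:33025023-33025202 for DNAJA1 (plus strand), chr6:31815293-31815542 for HSPA1A (plus strand), chr6:31827488-31827737 for HSPA1B (plus strand), chr7:76302423-76302672 for HSPB1 (plus strand) and chr12:119178681-119178930 for HSPB8 (plus strand).
HSPA8: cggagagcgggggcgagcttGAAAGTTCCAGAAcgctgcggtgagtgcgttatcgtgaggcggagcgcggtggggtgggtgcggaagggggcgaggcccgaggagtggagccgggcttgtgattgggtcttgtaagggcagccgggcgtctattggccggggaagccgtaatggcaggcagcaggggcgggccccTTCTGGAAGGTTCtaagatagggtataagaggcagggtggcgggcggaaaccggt
DNAJA1: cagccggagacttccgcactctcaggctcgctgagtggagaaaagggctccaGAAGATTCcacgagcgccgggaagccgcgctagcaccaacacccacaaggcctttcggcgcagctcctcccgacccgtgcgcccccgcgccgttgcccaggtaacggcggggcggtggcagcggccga
HSPA1A: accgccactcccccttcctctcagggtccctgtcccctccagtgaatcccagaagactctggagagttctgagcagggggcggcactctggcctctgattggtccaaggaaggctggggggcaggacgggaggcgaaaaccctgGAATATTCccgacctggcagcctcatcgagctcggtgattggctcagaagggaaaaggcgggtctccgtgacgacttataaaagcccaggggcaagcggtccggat
HSPA1B: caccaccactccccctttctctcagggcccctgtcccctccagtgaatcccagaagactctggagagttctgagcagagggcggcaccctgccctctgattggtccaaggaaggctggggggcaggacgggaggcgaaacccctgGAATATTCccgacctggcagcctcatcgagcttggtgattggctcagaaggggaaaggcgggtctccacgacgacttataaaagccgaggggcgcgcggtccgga
HSPB1: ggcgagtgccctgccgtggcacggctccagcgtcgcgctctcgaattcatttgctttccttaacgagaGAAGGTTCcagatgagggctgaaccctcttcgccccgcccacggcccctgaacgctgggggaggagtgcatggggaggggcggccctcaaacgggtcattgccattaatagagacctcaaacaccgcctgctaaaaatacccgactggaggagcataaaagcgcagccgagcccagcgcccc
HSPB8: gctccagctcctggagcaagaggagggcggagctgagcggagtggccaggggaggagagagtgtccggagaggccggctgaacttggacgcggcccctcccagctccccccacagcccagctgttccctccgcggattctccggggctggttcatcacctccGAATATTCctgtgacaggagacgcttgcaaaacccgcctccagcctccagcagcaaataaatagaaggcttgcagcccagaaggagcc

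HSPA8 carries 2 runs of 3 units, whose first matches begin 230 and 55 bases before the start site. HSPA1A and HSPA1B have the same match, 106 and 105 bases before the start site. HSPB8 has that same match 88 bases before its start. In HSPB1 the match begins 182 bases before the start. In DNAJA1 it begins 198 bases before the RefSeq start, which lies 70 bases inside the gene as deposited, so only the 180 bases before the deposited gene are shown.

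Across the family, HSPA1B, HSPH1, HSP90AA1, HSPB1, DNAJA1 and DNAJB1 were higher with 2-77, P-16 and ENZA, each by less than 1.5-fold, and HSPB8 was more than 2-fold higher. With ACBI, HSPA1B, DNAJB2 and DNAJB4 were at least 2-fold higher, while HSPB8, HSP90AA1, HSP90AB1, HSPA8, HSPD1 and HSPA9 were lower. With BD98, HSP90AA1, HSPA1B, DNAJA1, HSPH1, DNAJB1 and HSPB8 were higher and the mitochondrial HSPD1 and HSPA9 lower. By smaller amounts, HSPD1 was also lower with 2-77, and HSPA9 with 2-77 and ENZA. Together the 38 genes took 1.29% to 1.32% of all counts with 2-77, 0.890% to 0.962% with ACBI, 1.19% to 1.23% with BD98, 1.29% to 1.33% with P-16 and 1.27% to 1.31% with ENZA, against 1.16% to 1.19% with DMSO. The ACBI libraries lay below all others, and the BD98 and DMSO libraries touched at 1.19%.

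The filter on low counts kept 37 of the 38 genes and removed DNAJA4, an HSP40 gene with 0 to 13 counts per library and 67 in all 18. All 5 contrasts with DMSO share the same 3 DMSO libraries. With 2-77, 16 of 37 genes were higher (43.2%, against 20.5% of the 15422 genes tested) and 10 were lower (27%, against 20.2%), at an adjusted p under 0.05 in edgeR's quasi-likelihood test with Benjamini-Hochberg adjustment. With ACBI, 11 were higher (29.7%, against 35.4% of all genes) and 21 lower (56.8%, against 36.6%). Without ACBI replicate 3, these counts were 10 and 21: DNAJA1 and DNAJB6 were no longer called and HSPB1 was. BD98 gave 14 higher genes (37.8%, against 24.5%) and 10 lower ones (27%, against 24.5%). P-16 gave 15 higher (40.5%, against 12.4%) and 3 lower (8.11%, against 11.6%), and ENZA gave 14 higher (37.8%, against 18.2%) and 7 lower (18.9%, against 18.1%). The share of higher genes was thus above the share over all genes for 2-77, BD98, P-16 and ENZA and below it for ACBI, where the share of lower genes was above it. The 37 genes were not matched to all genes by level of expression, and the part of expression level in these shares was not tested. With library totals in place of TMM factors, BD98 gave 15 higher and 6 lower genes.

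Median log2 fold changes over the 37 genes were 0.11 with 2-77, -0.24 with ACBI, -0.06 with BD98, 0.14 with P-16 and 0.10 with ENZA, and the medians over all genes tested lay between -0.01 and 0.00. Without regard to sign, the medians of the 37 genes and of all genes were closer. They were 0.21 and 0.19 with 2-77, 0.45 and 0.44 with ACBI, and 0.19 and 0.22 with BD98. With P-16 they were 0.16 and 0.13, and with ENZA 0.19 and 0.17. The shares of called genes do not measure the size of change. At least 2-fold changes among called genes were limited to HSPB8 with 2-77, P-16 and ENZA, and 7 genes with ACBI (HSPA1B, HSPA2, DNAJB2 and DNAJB4 higher, HSPA1A, HSPB8 and HSPD1 lower). HSPA1A had at most 32.7 counts per library, and its fold change is not read, as explained below. It is still included in the counts of lower genes with ACBI. BD98 gave no called change of that size.

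**Figure D1:**
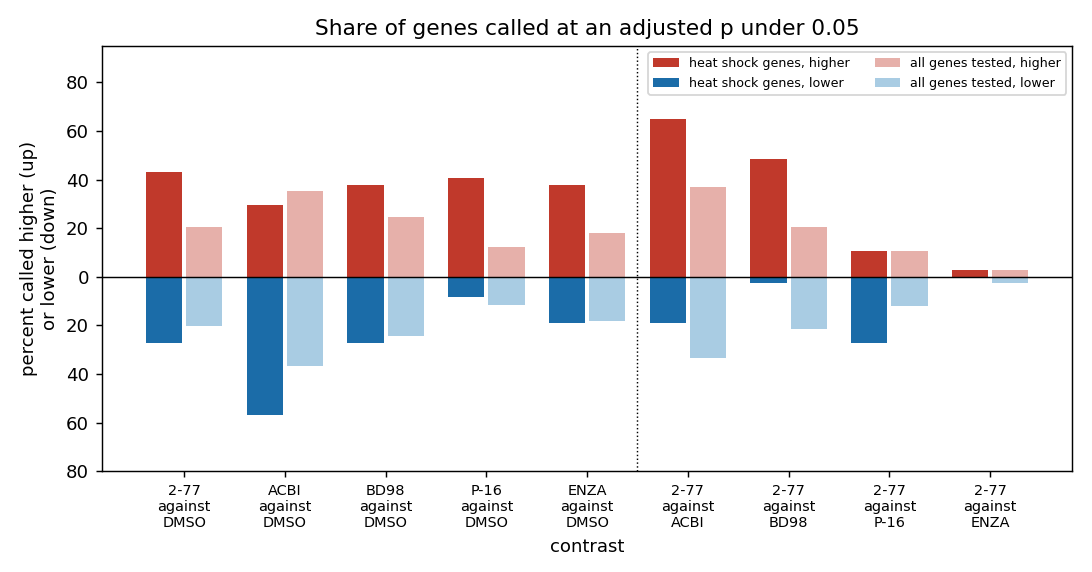
Percent of genes called higher (bars upward) or lower (bars downward) at an adjusted p under 0.05, for the 37 heat shock and cochaperone genes tested (dark bars, left of each pair) and all 15422 genes tested (pale bars, right of each pair), by contrast on the x axis. With 2-77, 43.2% of the family were higher against 20.5% of all genes, and with ACBI 56.8% were lower against 36.6%.

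**Figure D2:**
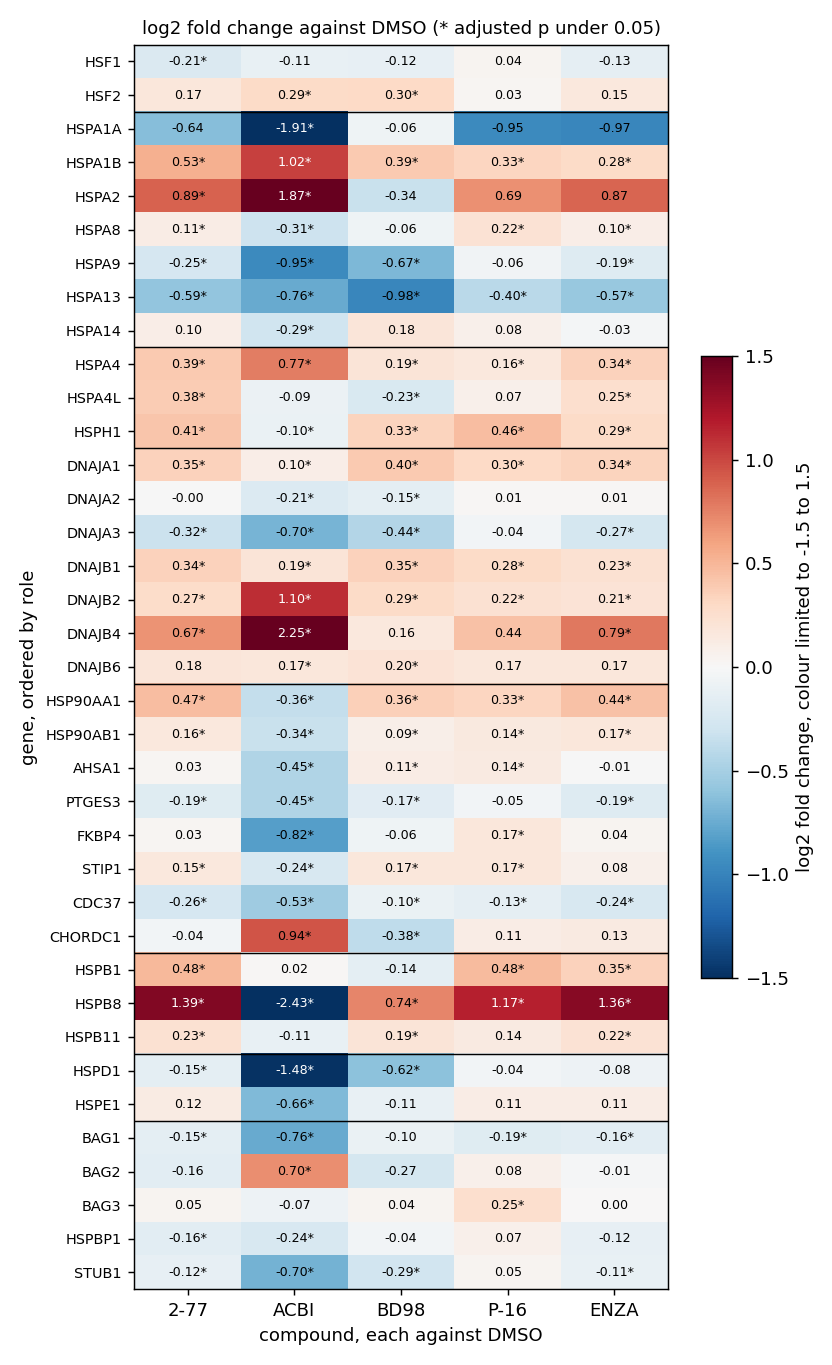
Log2 fold change of each tested gene (rows, ordered by role, black lines between roles) for each compound against DMSO (columns), with the value printed in each cell, colour limited to -1.5 to 1.5, and a star at an adjusted p under 0.05. HSPB8 was 1.39 with 2-77 and -2.43 with ACBI. The values of HSPA1A rest on at most 32.7 counts per library.

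The transcription factors moved little. HSF1 had 84.4, 91.2 and 80.04 CPM with 2-77, 99.2, 92.04 and 82.2 CPM with ACBI and 89.7, 87.4 and 94.3 CPM with BD98. It had 98.7, 101 and 106 CPM with P-16 and 88.8, 89.2 and 92.5 CPM with ENZA, against 97.6, 98.4 and 100.2 CPM with DMSO. All 3 libraries with 2-77 lay below the 3 with DMSO, and HSF1, the master regulator of the response, was 1.16-fold lower (-0.21 ± 0.055, adjusted p = 0.00232). For the other compounds the log2 fold change of HSF1 lay between -0.13 (ENZA, adjusted p = 0.0609) and 0.04 (P-16, adjusted p = 0.619), and none passed. The ENZA value passed without 2-77 replicate 3 or ACBI replicate 1 or 3, and with RLE factors and in a fit of these groups alone (adjusted p = 0.00632 to 0.0499), the BD98 value without 2-77 replicate 3, ACBI replicate 1 or 3 or BD98 replicate 3, and in DESeq2, with RLE factors, in a fit of these groups alone and without ribosomal RNA genes (adjusted p = 0.014 to 0.0488), and the ACBI value without ACBI replicate 1, and with library totals and with the stricter filter (adjusted p = 0.00502 to 0.0493). HSF2 had 21.6, 19.8 and 22.4 CPM with 2-77, 22.7, 22.4 and 24.3 CPM with ACBI and 22.9, 23.1 and 23.8 CPM with BD98. It had 19.7, 18.5 and 19.8 CPM with P-16 and 19.3, 21.3 and 22.6 CPM with ENZA, against 20.02, 19.6 and 17.3 CPM with DMSO. HSF2, a second heat shock factor that also acts in development, rose with ACBI (0.29 ± 0.074, adjusted p = 0.000989) and with BD98 (0.30 ± 0.074, adjusted p = 0.00138), with no overlap with DMSO. HSF2 did not pass with 2-77 (0.17 ± 0.074, adjusted p = 0.0675), P-16 (0.03) or ENZA (0.15). Its 2-77 value passed without 2-77 replicate 2 or ACBI replicate 3 (adjusted p = 0.0355 and 0.0487). Its ENZA value passed without ENZA replicate 1 (adjusted p = 0.0443).

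Stress-inducible HSP70 is encoded by HSPA1A and HSPA1B, whose starts lie 12195 bases apart (chr6:31815543-31817942 and chr6:31827738-31830254, hg38, plus strand) and whose coding sequences of 1926 bases differ at 4 bases (99.79% identity in GENCODE v29). The table gave nearly all counts of the pair to HSPA1B, with 6002 to 18154 counts per library, against 0.000168 to 32.7 for HSPA1A, at most 0.483% of the pair. The division between the copies is therefore uncertain, and no fold change is read from HSPA1A, although it passed the test with ACBI (adjusted p = 0.0426), a call lost in 11 of the 18 fits that leave out 1 library, with no filter and with the replicate block (adjusted p = 0.0523 to 0.144). Summing the pair left every call of HSPA1B as it was. HSPA1B had 513, 514 and 481 CPM with 2-77, 705, 705 and 715 CPM with ACBI and 455, 455 and 459.5 CPM with BD98. It had 430, 437 and 444 CPM with P-16 and 416, 422 and 434 CPM with ENZA, against 349, 349 and 347 CPM with DMSO. Every library with a compound lay above every DMSO library, and the 3 with ACBI lay above all others. HSPA1B was 1.44-fold higher with 2-77 (0.53 ± 0.034, adjusted p = 1.19e-13), 2.03-fold with ACBI (1.02 ± 0.034, adjusted p = 1.61e-21), 1.31-fold with BD98 (0.39 ± 0.034, adjusted p = 8.44e-11), 1.25-fold with P-16 (0.33 ± 0.034, adjusted p = 1e-08) and 1.22-fold with ENZA (0.28 ± 0.034, adjusted p = 6.13e-08). HSPA1A itself had 0.616, 0.648 and 0.853 CPM with 2-77, 0.272, 0 and 0.580 CPM with ACBI, 0.816, 1.88 and 0.636 CPM with BD98, 0.448, 0.651 and 0.614 CPM with P-16 and 0, 0.651 and 0.973 CPM with ENZA, against 1.69, 1.06 and 0.624 CPM with DMSO.

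Of the 7 tested HSP70 genes, 3 were higher and 2 lower with 2-77, 2 and 5 with ACBI (HSPA1A among the 5), 1 and 2 with BD98, 2 and 1 with P-16, and 2 and 2 with ENZA. Over all genes, as given above, 20.5% were higher and 20.2% lower with 2-77, 35.4% and 36.6% with ACBI, 24.5% each way with BD98, 12.4% and 11.6% with P-16, and 18.2% and 18.1% with ENZA, and the counts of each family are read against these shares. HSPA8 had 2934, 2917 and 2913 CPM with 2-77, 2153, 2219 and 2176 CPM with ACBI and 2457, 2624 and 2698 CPM with BD98. It had 3175, 3118 and 3152 CPM with P-16 and 2885, 2872 and 2951 CPM with ENZA, against 2734, 2699 and 2670 CPM with DMSO. HSPA8 encodes HSC70, the constitutive cytosolic HSP70, and had the highest level of the family per kilobase of transcript in every condition. Its ACBI libraries lay below, and its 2-77, P-16 and ENZA libraries above, all DMSO libraries, while BD98 overlapped DMSO. HSPA8 was lower with ACBI (-0.31 ± 0.030, adjusted p = 2.94e-10) and higher with P-16 (0.22 ± 0.030, adjusted p = 1.82e-06), 2-77 (0.11 ± 0.030, adjusted p = 0.00342) and ENZA (0.10 ± 0.030, adjusted p = 0.00746), and did not pass with BD98 (-0.06 ± 0.030, adjusted p = 0.111). Its BD98 value passed without ACBI replicate 3 or BD98 replicate 3, and in DESeq2 (adjusted p = 0.0212 to 0.044).

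HSPA13 had 38.4, 33.6 and 38.4 CPM with 2-77, 28.9, 29.6 and 39.9 CPM with ACBI and 28.4, 30.7 and 25.7 CPM with BD98. It had 42.2, 42.2 and 41.3 CPM with P-16 and 37.95, 38.2 and 35.4 CPM with ENZA, against 54.7, 59.1 and 52.4 CPM with DMSO. HSPA13, a microsomal HSP70 relative, was lower in every treated library than in any DMSO library, and fell with each compound. Its log2 fold changes were -0.59 ± 0.093 with 2-77, -0.76 ± 0.094 with ACBI, -0.98 ± 0.096 with BD98, -0.40 ± 0.093 with P-16 and -0.57 ± 0.093 with ENZA (adjusted p = 0.00337 or lower). Without ACBI replicate 3, which stood at 39.9 CPM, the ACBI value was -0.91. HSPA2, a testis-enriched HSP70, was near the detection limit, with 1.67, 1.78 and 2.11 CPM with ACBI, against 0.349, 0.657 and 0.490 CPM with DMSO (1.87 ± 0.32, adjusted p = 6.46e-06; 1.77 without ACBI replicate 3). With 2-77 HSPA2 had 0.778, 1.08 and 0.975 CPM (0.89 ± 0.35, adjusted p = 0.0409), a call lost without 2-77 replicate 2 or 3 or DMSO replicate 1 or 3, and in DESeq2 (adjusted p = 0.0684 to 0.15). HSPA14, the ribosome-associated HSP70L1, averaged 11.4 ± 0.68 CPM with ACBI and 13.96 ± 0.56 CPM with DMSO (SD, n = 3 each) and fell (-0.29 ± 0.084, adjusted p = 0.00276), and it did not pass with the other compounds (-0.03 to 0.18). Its BD98 value passed with library totals (adjusted p = 0.0146). LOC100421372, listed on the same strand over HSPA14, averaged 56.7 CPM, and its part in the value of HSPA14 was not tested.

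HSP110 proteins are HSP70 relatives that act as its nucleotide exchange factors. All 3 were higher with 2-77 and ENZA (20.5% and 18.2% of all genes), 2 with BD98 and P-16 (24.5% and 12.4%) and 1 with ACBI (35.4%), and 1 was lower with ACBI and 1 with BD98. HSPH1 had 167, 161 and 164 CPM with 2-77, 111, 114 and 119 CPM with ACBI and 160.1, 153 and 152 CPM with BD98. It had 176, 164 and 169 CPM with P-16 and 152, 151 and 148 CPM with ENZA, against 126, 126 and 118 CPM with DMSO. The 2-77, BD98, P-16 and ENZA libraries of HSPH1, which encodes HSP105, lay above the DMSO libraries, and the ACBI libraries overlapped them at the lower side. HSPH1 rose 1.33-fold with 2-77 (0.41 ± 0.039, adjusted p = 8.26e-10), 1.26-fold with BD98 (0.33 ± 0.040, adjusted p = 4.84e-08), 1.38-fold with P-16 (0.46 ± 0.040, adjusted p = 1.96e-10) and 1.22-fold with ENZA (0.29 ± 0.039, adjusted p = 8.5e-07). With ACBI it was 1.08-fold lower (-0.10 ± 0.040, adjusted p = 0.0204), a call lost without ACBI replicate 1 or 2 or DMSO replicate 1 or 2, and with no filter and in a fit of these groups alone (adjusted p = 0.0546 to 0.101). HSPA4 averaged 292 ± 0.89 CPM with 2-77, 379 ± 21 CPM with ACBI, 254 ± 4.1 CPM with BD98, 249 ± 8.2 CPM with P-16 and 282 ± 7.7 CPM with ENZA, against 223 ± 5.6 CPM with DMSO (SD, n = 3 each). HSPA4 rose with every compound without overlap, by 0.16 (P-16) to 0.77 (ACBI) on the log2 scale. HSPA4L rose with 2-77 (0.38 ± 0.077, adjusted p = 0.0002) and ENZA (0.25 ± 0.078, adjusted p = 0.0107), was lower with BD98 (-0.23 ± 0.081, adjusted p = 0.0181), and did not pass with ACBI (-0.09) or P-16 (0.07). Its ENZA call was lost without ENZA replicate 3 or DMSO replicate 1 (adjusted p = 0.0513 to 0.0691), and its BD98 call without BD98 replicate 1 or 3 or DMSO replicate 2, and with library totals (adjusted p = 0.0502 to 0.142).

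**Figure D3:**
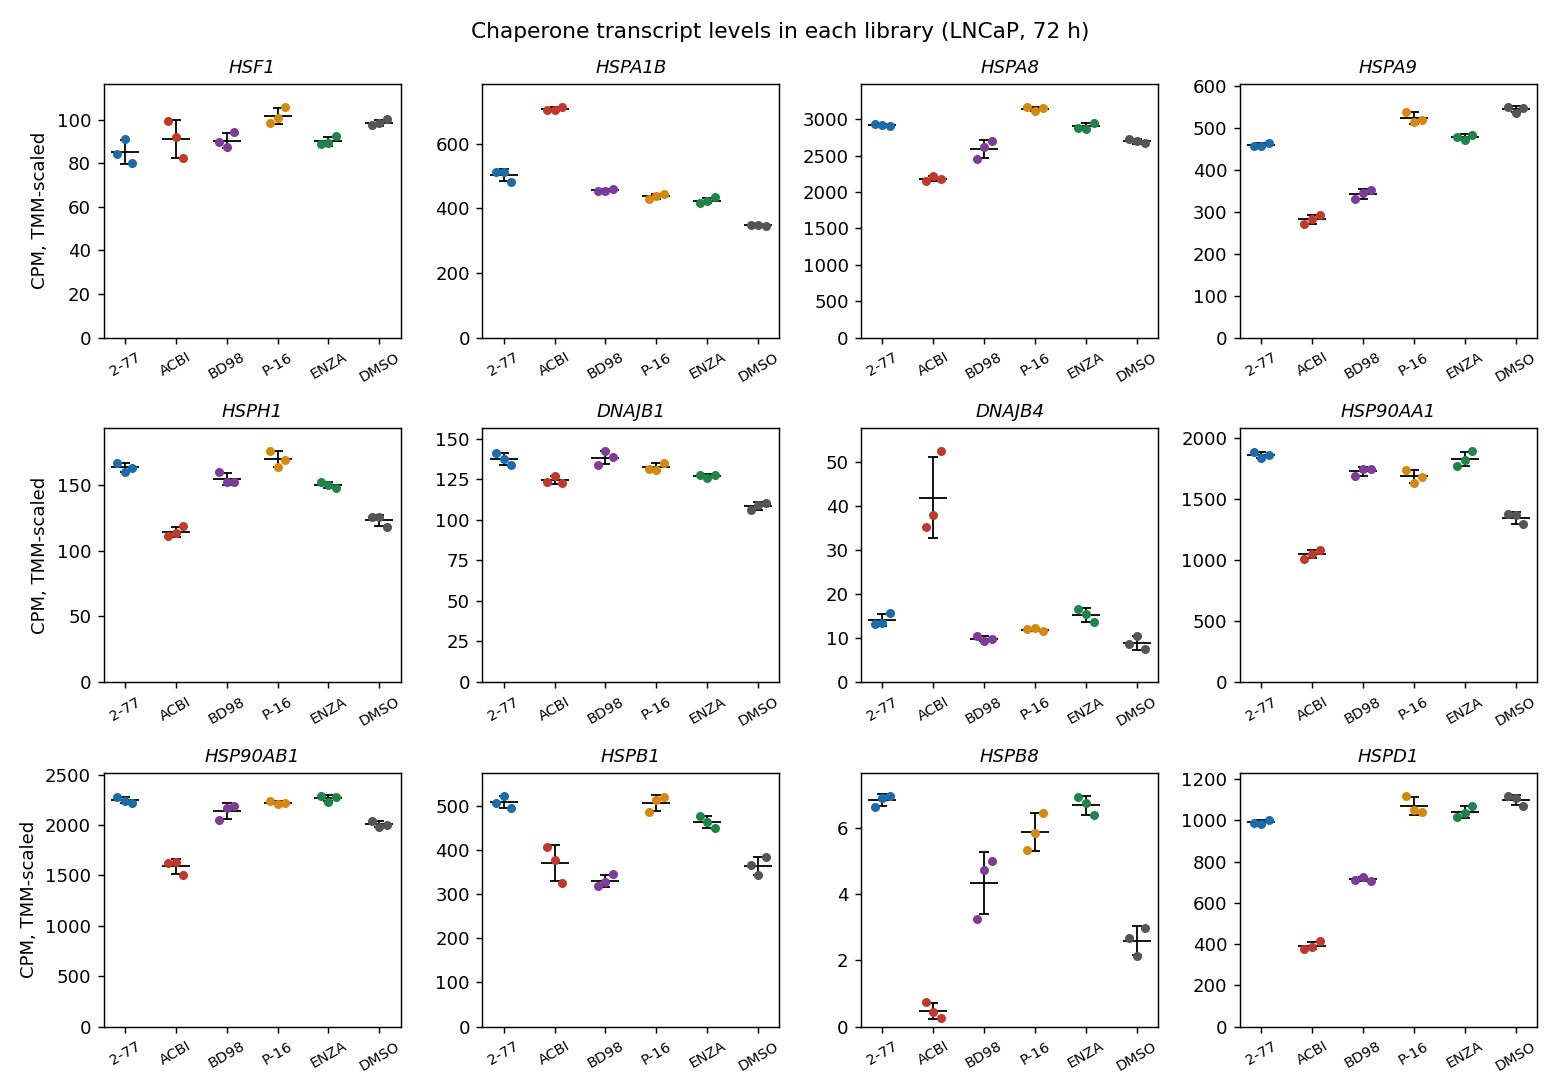
CPM of 12 genes in each library (coloured points, left to right replicates 1 to 3), with the group mean and SD (black bars), for the 5 compounds and DMSO on the x axis. All axes start at 0. HSPA1B with ACBI (705, 705 and 715 CPM) lies above all other libraries, and HSPD1 with ACBI (377, 387 and 413 CPM) below all others.

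Of the 7 tested HSP40 genes, 4 were higher and 1 lower with 2-77, 5 and 2 with ACBI, 4 and 2 with BD98, and 4 and 1 with ENZA, and 3 were higher with P-16. The shares of all genes higher were 20.5% with 2-77, 35.4% with ACBI, 24.5% with BD98, 18.2% with ENZA and 12.4% with P-16. DNAJB1 encodes the classical heat-inducible partner of HSP70. DNAJB1 had 141, 138 and 134 CPM with 2-77, 123, 127 and 123 CPM with ACBI and 134, 142 and 139 CPM with BD98. It had 131, 131 and 135 CPM with P-16 and 128, 126 and 128 CPM with ENZA, against 106, 109 and 111 CPM with DMSO. All treated libraries lay above all DMSO libraries. DNAJB1 rose 1.27-fold with 2-77 (0.34 ± 0.038, adjusted p = 1.57e-08), 1.14-fold with ACBI (0.19 ± 0.038, adjusted p = 4.03e-05), 1.27-fold with BD98 (0.35 ± 0.038, adjusted p = 8.56e-09), 1.22-fold with P-16 (0.28 ± 0.038, adjusted p = 1.14e-06) and 1.17-fold with ENZA (0.23 ± 0.038, adjusted p = 1.66e-05). DNAJA1 had 276, 264 and 290.3 CPM with 2-77, 221, 233 and 247 CPM with ACBI and 280, 292 and 287 CPM with BD98. It had 274, 265 and 263 CPM with P-16 and 279, 269.9 and 276 CPM with ENZA, against 222, 226 and 206 CPM with DMSO. DNAJA1, another cytosolic HSP40, had no overlap with DMSO for 2-77, BD98, P-16 and ENZA, with log2 fold changes of 0.35 ± 0.042 with 2-77, 0.40 ± 0.042 with BD98, 0.30 ± 0.043 with P-16 and 0.34 ± 0.042 with ENZA. With ACBI it overlapped DMSO (0.10 ± 0.042, adjusted p = 0.0337), and the call was lost without ACBI replicate 2 or 3 or DMSO replicate 3, and with library totals and in a fit of these groups alone (adjusted p = 0.0565 to 0.238).

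DNAJB4 and DNAJB2 had the largest rises with ACBI among the genes that passed the minimum of 4 CPM set for named genes. DNAJB4 had 13.2, 13.4 and 15.8 CPM with 2-77, 35.4, 38.1 and 52.5 CPM with ACBI and 10.4, 9.40 and 9.81 CPM with BD98. It had 11.96, 12.3 and 11.6 CPM with P-16 and 16.6, 15.5 and 13.6 CPM with ENZA, against 8.56, 10.5 and 7.49 CPM with DMSO. ACBI replicate 3 was the highest library, and all 3 ACBI libraries exceeded every other library. DNAJB4, an HSP40 of muscle and other tissues, was 4.75-fold higher with ACBI (2.25 ± 0.14, adjusted p = 4.3e-11) and 2.07 on the log2 scale without ACBI replicate 3. With 2-77 it was 1.60-fold (0.67 ± 0.15, adjusted p = 0.00163) and with ENZA 1.73-fold higher (0.79 ± 0.15, adjusted p = 0.000424), while P-16 (0.44 ± 0.16, adjusted p = 0.056) and BD98 (0.16 ± 0.16, adjusted p = 0.432) did not pass. The P-16 value passed without ACBI replicate 1, 2 or 3 or DMSO replicate 2, and in DESeq2, with library totals, with the stricter filter and in a fit of these groups alone (adjusted p = 0.00181 to 0.0497). DNAJB4 overlaps FUBP1 on the opposite strand, which averaged 154.7 CPM against 17 CPM for DNAJB4 over all libraries, and use of strand in the counting is not stated. FUBP1 was higher with ACBI (0.37 ± 0.060, adjusted p = 1.18e-05), and its part in the value of DNAJB4 was not tested. DNAJB2 had 135, 132 and 136 CPM with 2-77, 244, 242 and 231 CPM with ACBI and 133, 136 and 138 CPM with BD98. It had 125, 127 and 137 CPM with P-16 and 132, 126 and 127 CPM with ENZA, against 111, 112 and 109.9 CPM with DMSO. DNAJB2, a ubiquitin-binding HSP40 enriched in neurons, was above DMSO in all 15 treated libraries. It rose 2.15-fold with ACBI (1.10 ± 0.039, adjusted p = 6.28e-21) and by 0.21 (ENZA) to 0.29 (BD98) on the log2 scale with the other compounds.

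DNAJA3 had 137, 145 and 134 CPM with 2-77, 111, 108 and 101 CPM with ACBI and 126, 125 and 133 CPM with BD98. It had 169, 168 and 167 CPM with P-16 and 148, 142 and 143 CPM with ENZA, against 176, 172 and 172 CPM with DMSO. DNAJA3, the mitochondrial HSP40 (Tid1), lay below DMSO in every treated library. It fell with 2-77 (-0.32 ± 0.040, adjusted p = 1.17e-07), ACBI (-0.70 ± 0.041, adjusted p = 1.45e-15), BD98 (-0.44 ± 0.040, adjusted p = 3.13e-10) and ENZA (-0.27 ± 0.040, adjusted p = 3.64e-06), and did not pass with P-16 (-0.04 ± 0.040, adjusted p = 0.474). DNAJA2 averaged 105 ± 7.9 CPM with ACBI and 109.8 ± 2.0 CPM with BD98, against 122 ± 5.1 CPM with DMSO (SD, n = 3 each), and was lower with both (-0.21, adjusted p = 0.000117, and -0.15, adjusted p = 0.00559). Its BD98 call was lost without DMSO replicate 1, and with library totals (adjusted p = 0.051 to 0.105). DNAJB6 had log2 fold changes of 0.17 (ENZA) to 0.20 (BD98) with all compounds. It passed with ACBI (adjusted p = 0.0435), but the call was lost without ACBI replicate 3 or DMSO replicate 1 or 3, and with library totals, in a fit of these groups alone and with the replicate block (adjusted p = 0.058 to 0.221). It also passed with BD98 (adjusted p = 0.0276), a call lost without BD98 replicate 1 or 2 or DMSO replicate 1 or 3 (adjusted p = 0.0691 to 0.133). With 2-77, P-16 and ENZA, DNAJB6 did not pass in the main fit. Each of these values passed in a fit of the groups compared alone and without ACBI replicate 3 or P-16 replicate 3, among other settings. The adjusted p in the settings that passed was 0.0139 to 0.0444 for 2-77, 0.00781 to 0.046 for P-16 and 0.00751 to 0.0479 for ENZA.

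Cytosolic HSP90 is encoded by the inducible HSP90AA1 (chr14:102080742-102139749, minus strand, hg38) and the constitutive HSP90AB1 (chr6:44246166-44253888, plus strand). Both were higher with 2-77, BD98, P-16 and ENZA, and lower with ACBI. Together with their 6 cochaperones, 3 were higher and 2 lower with 2-77, 1 and 7 with ACBI, 4 and 3 with BD98, 5 and 1 with P-16, and 2 and 2 with ENZA. With ACBI 36.6% of all genes were lower, and with P-16 12.4% were higher. HSP90AA1 had 1883, 1837 and 1856 CPM with 2-77, 1010, 1052 and 1081 CPM with ACBI and 1686, 1743 and 1746 CPM with BD98. It had 1740, 1629 and 1681 CPM with P-16 and 1770, 1817 and 1890 CPM with ENZA, against 1376, 1364 and 1290 CPM with DMSO. The ACBI libraries lay below DMSO, and those of the other compounds above it. WDR20, on the opposite strand over HSP90AA1, averaged 29.3 CPM over all libraries. HSP90AA1 was 1.38-fold higher with 2-77 (0.47 ± 0.035, adjusted p = 4.2e-12), 1.28-fold with BD98 (0.36 ± 0.035, adjusted p = 9.36e-10), 1.25-fold with P-16 (0.33 ± 0.035, adjusted p = 2.32e-08) and 1.36-fold with ENZA (0.44 ± 0.035, adjusted p = 1.75e-11). With ACBI it was 1.28-fold lower (-0.36 ± 0.035, adjusted p = 2.37e-10). HSP90AB1 had 2282, 2239 and 2219 CPM with 2-77, 1625, 1635 and 1504 CPM with ACBI and 2045, 2171 and 2192 CPM with BD98. It had 2235, 2204 and 2220 CPM with P-16 and 2290, 2228 and 2280 CPM with ENZA, against 2039, 1981 and 2004 CPM with DMSO. Again the ACBI libraries lay below DMSO and those of the other compounds above it. HSP90AB1 was 1.27-fold lower with ACBI (-0.34 ± 0.033, adjusted p = 2.28e-10), and higher with 2-77 (0.16 ± 0.033, adjusted p = 0.000205), P-16 (0.14 ± 0.033, adjusted p = 0.0015), ENZA (0.17 ± 0.033, adjusted p = 9.42e-05) and BD98 (0.09 ± 0.033, adjusted p = 0.0258). The BD98 call of HSP90AB1 was lost without BD98 replicate 2 or 3 or DMSO replicate 2 or 3 (adjusted p = 0.0649 to 0.127).

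Of the 6 HSP90 cochaperones, 5 were lower with ACBI (36.6% of all genes) and CHORDC1 was higher. FKBP4 had 419, 428 and 404 CPM with 2-77, 244, 231 and 217 CPM with ACBI and 380.3, 391 and 398 CPM with BD98. It had 462, 468 and 447 CPM with P-16 and 426, 412 and 417 CPM with ENZA, against 413, 398 and 412 CPM with DMSO. FKBP4, the immunophilin FKBP52 of steroid receptor complexes, fell 1.77-fold with ACBI, without overlap (-0.82 ± 0.039, adjusted p = 1.35e-17). It was higher with P-16 (0.17 ± 0.039, adjusted p = 0.00132), and its values with 2-77 (0.03), BD98 (-0.06) and ENZA (0.04) did not pass. CDC37 had 237, 232 and 219 CPM with 2-77, 191, 188 and 192 CPM with ACBI and 254, 248 and 267 CPM with BD98. It had 248, 248 and 257 CPM with P-16 and 240.1, 235 and 222 CPM with ENZA, against 276, 264 and 283 CPM with DMSO. CDC37, which loads kinases onto HSP90, was lower with every compound, at -0.26 ± 0.039 with 2-77, -0.53 ± 0.039 with ACBI and -0.24 ± 0.039 with ENZA. With P-16 (-0.13 ± 0.039, adjusted p = 0.0151) the call was lost without P-16 replicate 1 or 2 or DMSO replicate 3 (adjusted p = 0.0644 to 0.107). With BD98, which overlapped DMSO (-0.10 ± 0.039, adjusted p = 0.0385), it was lost without BD98 replicate 1 or 2, P-16 replicate 2, ENZA replicate 2 or DMSO replicate 1 or 3, and with library totals and with no filter (adjusted p = 0.0501 to 0.556).

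CHORDC1 had 44.03, 37.95 and 48.8 CPM with 2-77, 76.9, 75.5 and 106 CPM with ACBI and 34.2, 33.2 and 35.5 CPM with BD98. It had 49.6, 46.7 and 48.2 CPM with P-16 and 49.5, 49.4 and 47.9 CPM with ENZA, against 45.5, 47.03 and 41.9 CPM with DMSO. CHORDC1, a cochaperone of HSP90 also called CHP1 or morgana, was 1.92-fold higher with ACBI (0.94 ± 0.11, adjusted p = 1.71e-06), with its highest value in ACBI replicate 3, and stood at 0.78 without that library. It was lower with BD98 (-0.38 ± 0.12, adjusted p = 0.0155), a call lost without DMSO replicate 2 (adjusted p = 0.061). STIP1 (HOP), the adaptor between HSP70 and HSP90, averaged 298 ± 3.0 CPM with 2-77, 227 ± 3.2 CPM with ACBI, 301 ± 14 CPM with BD98 and 301 ± 4.6 CPM with P-16, against 268 ± 2.6 CPM with DMSO (SD, n = 3 each). It was lower with ACBI (-0.24 ± 0.035, adjusted p = 6.47e-07) and higher with 2-77 (0.15), BD98 (0.17) and P-16 (0.17). AHSA1, which stimulates the HSP90 ATPase, fell with ACBI (-0.45 ± 0.041, adjusted p = 4.55e-11), at 98.2 ± 2.3 CPM with ACBI and 134 ± 1.1 CPM with DMSO. AHSA1 was 0.11 with BD98 (adjusted p = 0.0208), a call lost without BD98 replicate 1 or 3 or DMSO replicate 2 (adjusted p = 0.0587 to 0.19), and 0.14 with P-16 (adjusted p = 0.0125), a call lost without P-16 replicate 1 (adjusted p = 0.0712). PTGES3, the cochaperone p23, fell with ACBI (-0.45 ± 0.060, adjusted p = 1.06e-06). Its smaller values of -0.19 with 2-77, -0.17 with BD98 and -0.19 with ENZA passed too (adjusted p = 0.0174, 0.0264 and 0.016). Those calls were lost with 2-77 without 2-77 replicate 1 or 2 or DMSO replicate 1 (adjusted p = 0.0641 to 0.0734), with BD98 without BD98 replicate 3 or DMSO replicate 1 or 2, and with library totals and in a fit of these groups alone (adjusted p = 0.0641 to 0.158), and with ENZA without ENZA replicate 1 or 3 or DMSO replicate 1 (adjusted p = 0.0505 to 0.0637).

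Small heat shock proteins hold unfolded clients without ATP. All 3 tested genes were higher with 2-77 and ENZA (20.5% and 18.2% of all genes) and 2 with BD98 and P-16 (24.5% and 12.4%), and 1 was lower with ACBI (36.6%). HSPB8, which works with BAG3 in selective autophagy, had the largest rise of the 37 tested genes with 2-77, BD98, P-16 and ENZA, and the largest fall with ACBI. HSPB8 had 6.65, 6.91 and 6.99 CPM with 2-77, 0.738, 0.435 and 0.249 CPM with ACBI and 3.26, 4.73 and 5.02 CPM with BD98. It had 5.33, 5.86 and 6.48 CPM with P-16 and 6.95, 6.75 and 6.39 CPM with ENZA, against 2.68, 2.12 and 2.99 CPM with DMSO. All libraries of the 4 compounds other than ACBI lay above DMSO, and the ACBI libraries lay below every other library. HSPB8 was 2.63-fold higher with 2-77 (1.39 ± 0.18, adjusted p = 1.8e-07), 1.67-fold with BD98 (0.74 ± 0.19, adjusted p = 0.00151), 2.25-fold with P-16 (1.17 ± 0.18, adjusted p = 1.24e-05) and 2.57-fold with ENZA (1.36 ± 0.18, adjusted p = 3.12e-07). With ACBI it was 5.38-fold lower (-2.43 ± 0.26, adjusted p = 2.18e-09), and -2.11 without ACBI replicate 3. HSPB1 had 507, 523 and 495 CPM with 2-77, 406, 378 and 326 CPM with ACBI and 318, 327 and 345 CPM with BD98. It had 487, 514 and 520.2 CPM with P-16 and 478, 464 and 451 CPM with ENZA, against 366, 343 and 384 CPM with DMSO. The 2-77, P-16 and ENZA libraries of HSPB1, which encodes HSP27, lay above DMSO, and the ACBI and BD98 libraries overlapped it. HSPB1 rose 1.40-fold with 2-77 (0.48 ± 0.059, adjusted p = 9.9e-07), 1.39-fold with P-16 (0.48 ± 0.059, adjusted p = 2.84e-06) and 1.28-fold with ENZA (0.35 ± 0.059, adjusted p = 6.46e-05). HSPB1 with ACBI did not pass (0.02 ± 0.059, adjusted p = 0.749), but stood at 0.11 with an adjusted p of 0.022 without ACBI replicate 3. With BD98 its value of -0.14 had an adjusted p of 0.0515, which passed without ACBI replicate 1 or 3, BD98 replicate 3 or DMSO replicate 2, and in DESeq2, with RLE factors, with the stricter filter, in a fit of these groups alone and without ribosomal RNA genes (adjusted p = 0.00203 to 0.0433). HSPB11 had log2 fold changes of 0.23 with 2-77, -0.11 with ACBI, 0.19 with BD98, 0.14 with P-16 and 0.22 with ENZA, of which those with 2-77, BD98 and ENZA passed (adjusted p = 0.00779, 0.0248 and 0.0121). Its BD98 call was lost without BD98 replicate 3 or DMSO replicate 1 or 2 (adjusted p = 0.0533 to 0.145), and its ENZA call without DMSO replicate 2 (adjusted p = 0.0583).

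Of the mitochondrial chaperones, HSPD1, HSPA9 and DNAJA3 fell with ACBI and BD98, and HSPE1 fell with ACBI. HSPD1 and HSPE1 encode HSP60 and HSP10, the 2 parts of the mitochondrial chaperonin, and lie head to head with 104 bases between them (chr2:197486584-197500274, minus strand, and chr2:197500379-197503449, plus strand, hg38). HSPD1 had 986, 981 and 1001 CPM with 2-77, 377, 387 and 413 CPM with ACBI and 712, 726 and 705 CPM with BD98. It had 1119, 1052 and 1038 CPM with P-16 and 1016, 1034 and 1069 CPM with ENZA, against 1119, 1106 and 1070 CPM with DMSO. The ACBI libraries were lowest and the BD98 libraries next, both below all others, and the P-16 libraries overlapped DMSO. HSPD1 fell 2.80-fold with ACBI (-1.48 ± 0.038, adjusted p = 2.05e-24), 1.54-fold with BD98 (-0.62 ± 0.037, adjusted p = 2.02e-14) and 1.11-fold with 2-77 (-0.15 ± 0.037, adjusted p = 0.00145), and did not pass with ENZA (-0.08 ± 0.037, adjusted p = 0.0949) or P-16 (-0.04 ± 0.037, adjusted p = 0.51). Its ENZA value passed in a fit of these groups alone and without ACBI replicate 3 (adjusted p = 0.0197 and 0.038). HSPE1 had 71.4, 74.7 and 90.3 CPM with ACBI, against 124, 129 and 120.2 CPM with DMSO, and fell (-0.66 ± 0.059, adjusted p = 2.75e-10; -0.76 without ACBI replicate 3). With the other compounds HSPE1 lay between -0.11 (BD98) and 0.12 (2-77) and did not pass. Each of these values passed without ACBI replicate 3 and in a fit of the groups compared alone (adjusted p = 0.01 to 0.0374). The 2-77 value of HSPE1 also passed with library totals (adjusted p = 0.0444). The 2 promoter neighbours thus had unequal values with BD98, -0.62 ± 0.037 for HSPD1 and -0.11 ± 0.058 for HSPE1; the difference between them was not tested. HSPA9 had 457, 457 and 465 CPM with 2-77, 271, 283 and 292 CPM with ACBI and 329.8, 346 and 353 CPM with BD98. It had 539, 514 and 519 CPM with P-16 and 479, 471 and 484 CPM with ENZA, against 551, 537 and 548 CPM with DMSO. HSPA9, the mitochondrial HSP70 mortalin, lay below DMSO in the 2-77, ACBI, BD98 and ENZA libraries. It fell 1.93-fold with ACBI (-0.95 ± 0.036, adjusted p = 4.3e-20), 1.59-fold with BD98 (-0.67 ± 0.036, adjusted p = 1.49e-15), 1.19-fold with 2-77 (-0.25 ± 0.036, adjusted p = 1.48e-06) and 1.14-fold with ENZA (-0.19 ± 0.035, adjusted p = 8.07e-05), and did not pass with P-16 (-0.06 ± 0.035, adjusted p = 0.263).

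Of the 5 genes for proteins that release clients from HSP70 or mark them for degradation, 3 were lower with 2-77 (20.2% of all genes), 2 with ENZA (18.1%), 1 with BD98 (24.5%), 3 with ACBI (36.6%) and 1 with P-16 (11.6%), and 1 was higher with ACBI and 1 with P-16. BAG3, a heat-inducible exchange factor, passed with P-16 and with no other compound. BAG3 had 80.9, 82.9 and 79.3 CPM with 2-77, 80.5, 73.03 and 70.2 CPM with ACBI and 76.3, 80.5 and 85.7 CPM with BD98. It had 92.2, 94.6 and 93.1 CPM with P-16 and 79.4, 79.4 and 76.8 CPM with ENZA, against 75.7, 78.3 and 81.3 CPM with DMSO. The 3 P-16 libraries lay above all others, and BAG3 rose 1.19-fold with P-16 (0.25 ± 0.050, adjusted p = 0.000381). Its values with 2-77 (0.05 ± 0.050), ACBI (-0.07 ± 0.050), BD98 (0.04 ± 0.050) and ENZA (0.00 ± 0.050) did not pass. The ACBI value of BAG3 passed without ACBI replicate 1 (adjusted p = 0.0278). BAG1 had 62.6, 61.4 and 60.5 CPM with 2-77, 41.7, 39.1 and 40.6 CPM with ACBI and 62.2, 64.1 and 65.4 CPM with BD98. It had 58.3, 58.8 and 63.3 CPM with P-16 and 60.8, 61.6 and 61.9 CPM with ENZA, against 68.5, 68.4 and 68.2 CPM with DMSO. BAG1, another exchange factor, lay below DMSO in every treated library. It fell 1.69-fold with ACBI (-0.76 ± 0.047, adjusted p = 6.86e-15), and was lower with 2-77 (-0.15 ± 0.045, adjusted p = 0.00728), P-16 (-0.19 ± 0.046, adjusted p = 0.00281) and ENZA (-0.16 ± 0.045, adjusted p = 0.00704), while BD98 did not pass (-0.10 ± 0.045, adjusted p = 0.0764). The BD98 value of BAG1 passed with RLE factors and without ACBI replicate 3 (adjusted p = 0.048 and 0.0449). BAG2, an inhibitor of the ligase CHIP, had 18.2, 17.5 and 21.2 CPM with ACBI, against 10.2, 13.6 and 11.1 CPM with DMSO, and rose 1.63-fold (0.70 ± 0.12, adjusted p = 6.26e-06; 0.62 without ACBI replicate 3). RAB23, which overlaps BAG2 on the opposite strand, was 0.28 with ACBI (adjusted p = 0.00335). STUB1, which encodes CHIP, had 122, 121 and 121 CPM with ACBI and 171, 155 and 159.8 CPM with BD98, against 196, 192 and 205 CPM with DMSO. It fell 1.63-fold with ACBI (-0.70 ± 0.042, adjusted p = 2.77e-15) and 1.22-fold with BD98 (-0.29 ± 0.041, adjusted p = 1.3e-06), without overlap. JMJD8, on the opposite strand over STUB1, did not pass with ACBI (0.06 ± 0.059, adjusted p = 0.341) or BD98 (-0.07 ± 0.059, adjusted p = 0.342). The part of RAB23 and JMJD8 reads in these values was not tested. Smaller STUB1 values of -0.12 with 2-77 and -0.11 with ENZA passed (adjusted p = 0.0224 and 0.0343), but not for 2-77 without 2-77 replicate 1 or 3 or DMSO replicate 3, and with library totals (adjusted p = 0.0826 to 0.141), nor for ENZA without ENZA replicate 1 or 3 or DMSO replicate 1 or 3, and with library totals and with no filter (adjusted p = 0.0635 to 0.196). HSPBP1, an HSP70 exchange factor, was lower with ACBI (-0.24 ± 0.059, adjusted p = 0.00073) and 2-77 (-0.16 ± 0.058, adjusted p = 0.0312), and the 2-77 call was lost without 2-77 replicate 2 or 3 or DMSO replicate 1, 2 or 3, and with library totals (adjusted p = 0.0521 to 0.0952).

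Levels of different genes were compared as CPM per kilobase of the longest principal transcript in GENCODE v29. With DMSO the order was HSPA8 (1097 ± 13), HSP90AB1 (751 ± 11), HSPD1 (447 ± 10.4), HSPB1 (401 ± 22), HSP90AA1 (398 ± 14), PTGES3 (183 ± 5.5), CDC37 (171 ± 6.0) and HSPA1B (138 ± 0.63 CPM per kilobase, SD, n = 3). HSPB1 and HSP90AA1 overlapped between libraries and did not differ beyond their spread. The lowest PTGES3 library (176.4) lay just above the highest CDC37 library (176.2 CPM per kilobase). With ACBI, HSPA1B stood at rank 5 (281 ± 2.3) and HSPD1 at rank 6 (159.8 ± 7.6 CPM per kilobase), against ranks 8 and 3 with DMSO.

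The contrasts of 2-77 with the other 4 compounds ask whether its chaperone profile differs from theirs, at different doses. Adjustment was within each contrast over all 15422 genes, and 4 pairs were compared. Against ENZA (1 µM 2-77 and 10 µM ENZA), 1 of 37 genes passed (2.7%, against 2.94% of all genes higher and 2.6% lower). That gene was HSPA1B, with 513, 514 and 481 CPM with 2-77, against 416, 422 and 434 CPM with ENZA, 1.19-fold higher without overlap (0.24 ± 0.033, adjusted p = 6.75e-06). The other genes are not thereby shown to act alike: 5 of the 37 had an unadjusted p under 0.05. The approximate 95% interval of the log2 difference (2 SE to each side) was 0.05 to 0.20 for HSPH1, 0.04 to 0.19 for DNAJB1, 0.01 to 0.25 for HSPB1, -0.04 to 0.10 for HSP90AA1 and -0.27 to 0.33 for HSPB8. For 31 of 36 genes (HSPA1A left out) the interval lay within a 1.25-fold change in either direction, and HSPA2, HSPB8, DNAJB4, CHORDC1 and BAG2 had wider ones. DESeq2 called 2 genes and a fit of these groups alone called 3.

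Against P-16 (10 µM), 4 of 37 genes were higher with 2-77 (10.8%, against 10.6% of all genes) and 10 lower (27%, against 11.8%). HSPA1B (0.20 ± 0.033, adjusted p = 4.67e-05), HSPA4 (0.23 ± 0.038, adjusted p = 5.63e-05), HSPA4L (0.31 ± 0.076, adjusted p = 0.0038) and HSP90AA1 (0.14 ± 0.035, adjusted p = 0.00342) were higher with 2-77. DNAJA3 (-0.28 ± 0.040, adjusted p = 5.46e-06), HSF1 (-0.26 ± 0.054, adjusted p = 0.000878), HSPBP1 (-0.23 ± 0.058, adjusted p = 0.0042) and BAG3 (-0.20 ± 0.049, adjusted p = 0.00312) were the lowest relative to P-16, followed by HSPA9, STUB1, FKBP4, CDC37, HSPD1 and HSPA8 (-0.19 to -0.11). HSPD1 was not called without 2-77 replicate 1 or 2 or P-16 replicate 1, and with library totals (adjusted p = 0.0693 to 0.171), FKBP4 not without 2-77 replicate 3 or P-16 replicate 2, and with library totals (adjusted p = 0.0506 to 0.101), CDC37 not without 2-77 replicate 3 or P-16 replicate 3, and with library totals (adjusted p = 0.0892 to 0.121), and HSPA8 not with library totals (adjusted p = 0.138). For HSPB8 the difference was 0.22 (95% interval -0.09 to 0.54), for HSPB1 0.00 (-0.11 to 0.12) and for HSPH1 -0.05 (-0.13 to 0.02), and none of the 3 passed. With library totals, 4 genes were higher and 6 lower.

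Against BD98 (2 µM), 18 of 37 genes were higher with 2-77 (48.6%, against 20.7% of all genes) and 1, CDC37, was lower (2.7%, against 21.3%; -0.16 ± 0.039, adjusted p = 0.00139). The median log2 difference without regard to sign was smaller for the 37 genes (0.12) than for all genes (0.18). HSPB1 had 507, 523 and 495 CPM with 2-77, against 318, 327 and 345 CPM with BD98 (0.62 ± 0.059, adjusted p = 2.41e-08), and HSPD1 had 986, 981 and 1001 CPM, against 712, 726 and 705 CPM (0.47 ± 0.037, adjusted p = 1.23e-11). HSPB8 (0.65 ± 0.16, adjusted p = 0.0015), HSPA4L (0.61 ± 0.078, adjusted p = 1.75e-07), DNAJB4 (0.51 ± 0.15, adjusted p = 0.00892) and HSPA9 (0.42 ± 0.036, adjusted p = 6.03e-11) were higher with 2-77 too. The largest called difference (1.22) was that of HSPA2, near the detection limit. HSPA2 had 0.778, 1.08 and 0.975 CPM with 2-77, against 0.215, 0.570 and 0.435 CPM with BD98. The calls of HSP90AA1, DNAJA3, FKBP4 and CHORDC1 were each lost in some fits with 1 library left out (adjusted p = 0.0505 to 0.159). DNAJB1 (-0.01, 95% interval -0.08 to 0.07) and DNAJA1 (-0.05, -0.13 to 0.03) did not pass. With library totals the split was 13 higher and 4 lower.

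Against ACBI (0.2 µM), 24 of 37 genes were higher with 2-77 (64.9%, against 36.8% of all genes) and 7 lower (18.9%, against 33.4%). HSPB8 was 14.1-fold (3.82 ± 0.23, adjusted p = 3.17e-15), HSPD1 2.52-fold (1.33 ± 0.037, adjusted p = 2.9e-23), FKBP4 1.81-fold (0.85 ± 0.039, adjusted p = 5.06e-18) and HSP90AA1 1.77-fold higher with 2-77 (0.83 ± 0.035, adjusted p = 8.85e-19). DNAJB4 (-1.57 ± 0.13, adjusted p = 2.26e-09), DNAJB2 (-0.83 ± 0.038, adjusted p = 4.26e-18), HSPA1B (-0.50 ± 0.033, adjusted p = 6.51e-14), HSPA4 (-0.38 ± 0.038, adjusted p = 4.94e-10), CHORDC1 (-0.98 ± 0.11, adjusted p = 9.29e-07), BAG2 (-0.86 ± 0.11, adjusted p = 1.88e-07) and HSPA2 (-0.98 ± 0.28, adjusted p = 0.00232) were lower with 2-77 than with ACBI. Without ACBI replicate 3, 24 genes were higher and 8 lower: HSPA13 (0.33, adjusted p = 0.000102) was called higher, HSF1 (-0.17, adjusted p = 0.00247) was called lower and BAG3 (0.07, adjusted p = 0.213) was not called. HSPB8 was then 3.51, DNAJB4 -1.39, CHORDC1 -0.81, BAG2 -0.78 and HSPA2 -0.89, all called.

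**Figure D4:**
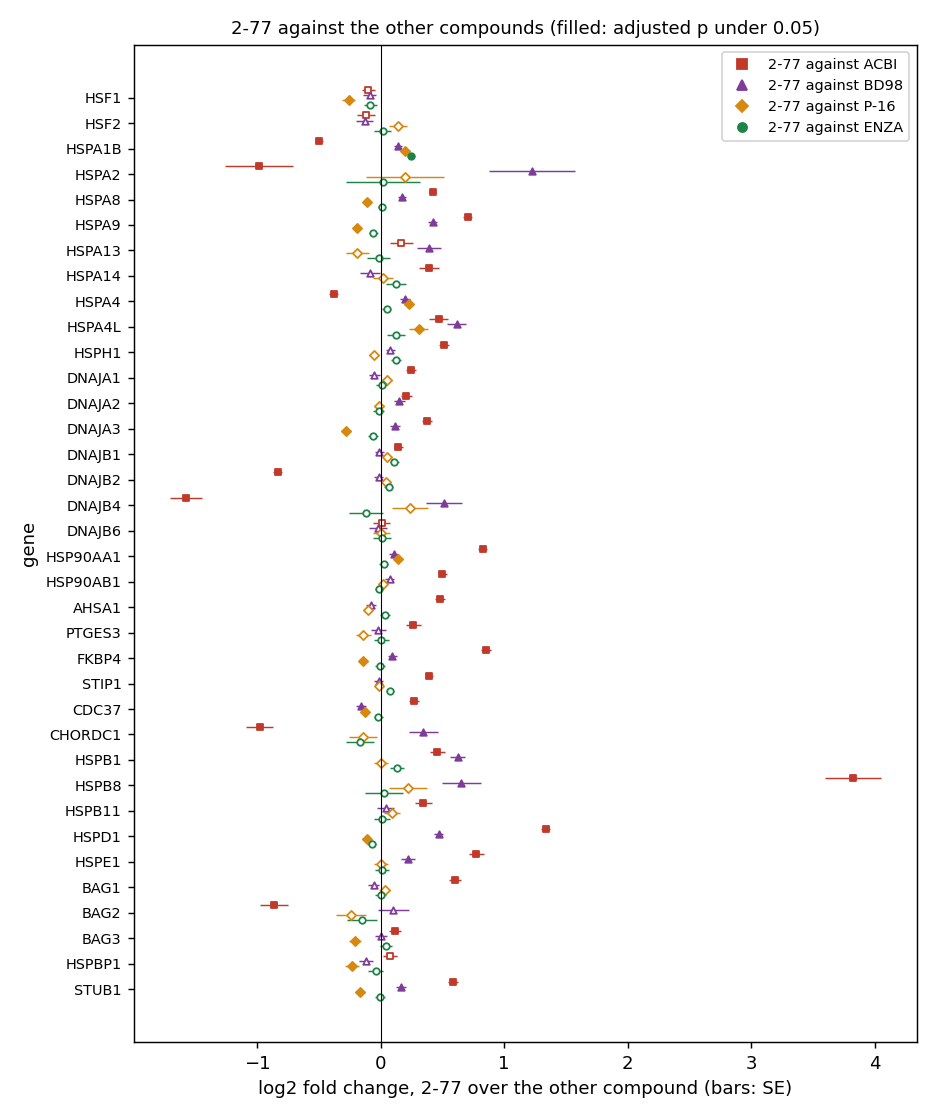
Log2 fold change of 2-77 over each of the other 4 compounds (x axis, points with SE bars) for 36 genes (y axis, ordered by role, HSPA1A left out); filled points have an adjusted p under 0.05. HSPB8 against ACBI (3.82) lies farthest from 0, and against ENZA the single filled point is HSPA1B (0.24).

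Other chaperone genes were taken from 5 lists of textbook genes (53 named, 51 in the table and 47 tested), and their counts are read against the shares over all genes given above. Of the 47, 9 were higher and 10 lower with 2-77, 14 and 24 with ACBI, 12 and 15 with BD98, 8 and 4 with P-16, and 11 and 12 with ENZA. Without ACBI replicate 3, when 49 passed the filter, 14 were higher and 25 lower with ACBI. All 8 subunits of TRiC, the cytosolic chaperonin for actin and tubulin, were lower with ACBI (median -0.38, also without ACBI replicate 3), at -0.24 (CCT8) to -0.79 (CCT5). With 2-77, 2 TRiC subunits were higher and 1 lower, with BD98 2 and 3, and with ENZA 1 and 1, and with P-16 all 8 values lay between -0.08 (TCP1) and 0.09 (CCT3) without passing. Of these, TCP1, CCT2 and CCT3 with 2-77 and CCT2, CCT3, CCT4 and CCT8 with BD98 each lost their call under at least 1 alternative setting. Of 7 further mitochondrial chaperones and proteases, 6 were lower with 2-77 (median -0.18), 6 with ACBI (-0.80), 6 with BD98 (-0.40), 1 with P-16 (-0.06) and 5 with ENZA (-0.18) at the same threshold; the other members of this list did not pass. GRPEL2, an exchange factor of mitochondrial HSP70, had 66.8, 68.4 and 72.9 CPM with 2-77, 33.2, 34.4 and 36.2 CPM with ACBI and 57.9, 57.8 and 46.4 CPM with BD98, against 112, 111 and 99.04 CPM with DMSO. It fell with each compound (-0.63 with 2-77, -1.63 with ACBI, -0.997 with BD98, -0.32 with P-16 and -0.49 with ENZA). TRAP1, the mitochondrial HSP90, fell 2.45-fold with ACBI (-1.29 ± 0.037, adjusted p = 6.24e-23), and the protease gene LONP1 1.76-fold with BD98 (-0.82 ± 0.039, adjusted p = 8.14e-17).

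Of 17 further HSP70 and HSP90 cochaperones, 3 were higher and 2 lower with 2-77, 6 and 6 with ACBI, 5 and 4 with BD98, 3 and 3 with P-16, and 3 and 3 with ENZA. FKBP5, an HSP90 immunophilin and an androgen-induced gene, had 49.8, 48.96 and 50.3 CPM with 2-77, 405, 404 and 433 CPM with ACBI, 88.3, 91.8 and 90.7 CPM with BD98, 60.02, 58.1 and 56.2 CPM with P-16 and 49.1, 50.6 and 53.1 CPM with ENZA, against 104, 96.7 and 96.3 CPM with DMSO. The ACBI libraries lay above and all other treated libraries below DMSO (-0.99 with 2-77, 2.07 with ACBI, -0.13 with BD98, -0.76 with P-16 and -0.96 with ENZA). The BD98 call of FKBP5 was lost without DMSO replicate 1, and with library totals (adjusted p = 0.0946 to 0.238). DNAJB5 rose 2.49-fold with ACBI (1.31 ± 0.081, adjusted p = 7.39e-15) and UNC45A, an HSP90 cochaperone, 1.21-fold with BD98 (0.28 ± 0.042, adjusted p = 2.27e-06). Of 6 prefoldin subunits, which pass nascent chains to TRiC, 2 were higher and 1 lower with 2-77, 3 and 1 with ACBI, 2 and 1 with BD98, 2 were higher with P-16, and 3 were higher and 1 lower with ENZA. They included PFDN5 with 2-77 (0.22 ± 0.039, adjusted p = 3.13e-05), PFDN1 with P-16 (0.23 ± 0.048, adjusted p = 0.000535) and VBP1 with ENZA (0.35 ± 0.071, adjusted p = 0.000388). With library totals the split over the 47 genes was 15 higher and 7 lower with BD98 and 4 and 5 with P-16.

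Of 9 tested genes on the list of other stress-induced and small heat shock genes, 2 were higher with 2-77, 5 were higher and 3 lower with ACBI, 3 and 1 with BD98, 4 and 2 with ENZA, and 3 were higher with P-16. HSPA12A, a distant HSP70 relative, was higher with 2-77 (0.52 ± 0.091, adjusted p = 3.1e-05), ACBI (0.34 ± 0.093, adjusted p = 0.00178), BD98 (0.53 ± 0.092, adjusted p = 2.32e-05), P-16 (0.44 ± 0.094, adjusted p = 0.0008) and ENZA (0.47 ± 0.092, adjusted p = 0.000143). HSPA6, CRYAB and SERPINH1 were below the minimum of 4 CPM set for named genes in these contrasts and were chosen after their values were seen. HSPA6, the strictly heat-inducible HSP70B′, had 2.46, 2.72 and 2.15 CPM with 2-77, 3.15, 4.26 and 2.49 CPM with ACBI, 0.429, 0.228 and 0.536 CPM with BD98, 0.936, 1.63 and 1.73 CPM with P-16 and 0.282, 0.488 and 0.463 CPM with ENZA, against 1.28, 1.72 and 1.78 CPM with DMSO. HSPA6 was higher with ACBI (1.03 ± 0.25, adjusted p = 0.000578; 1.21 without ACBI replicate 3) and lower with BD98 (-1.93 ± 0.33, adjusted p = 2.11e-05) and ENZA (-1.91 ± 0.33, adjusted p = 2.46e-05), and did not pass with 2-77 (0.60 ± 0.26, adjusted p = 0.0605) or P-16 (-0.19). Its 2-77 value passed without ACBI replicate 3 or P-16 replicate 1, and in a fit of these groups alone (adjusted p = 0.0321 to 0.047). CRYAB, the small heat shock protein alpha B-crystallin, had 1 count in all over the 3 ACBI libraries, against 234 over the 3 DMSO libraries, and its fitted fold change is not read here. SERPINH1, the collagen chaperone HSP47 of the endoplasmic reticulum, had 3.21, 3.15 and 3.33 CPM with 2-77, 0.350, 0.305 and 0.497 CPM with ACBI and 1.89, 1.82 and 2.65 CPM with BD98. It had 2.16, 3.30 and 2.79 CPM with P-16 and 2.44, 2.71 and 3.15 CPM with ENZA, against 0.757, 1.57 and 0.847 CPM with DMSO. The ACBI libraries of SERPINH1 lay below DMSO and those of the other compounds above it (1.60 with 2-77, -1.45 with ACBI, 1.02 with BD98, 1.36 with P-16 and 1.38 with ENZA), and all 5 passed. Without ACBI replicate 3, SERPINH1 with ACBI stood at -1.67.

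**Figure D5:**
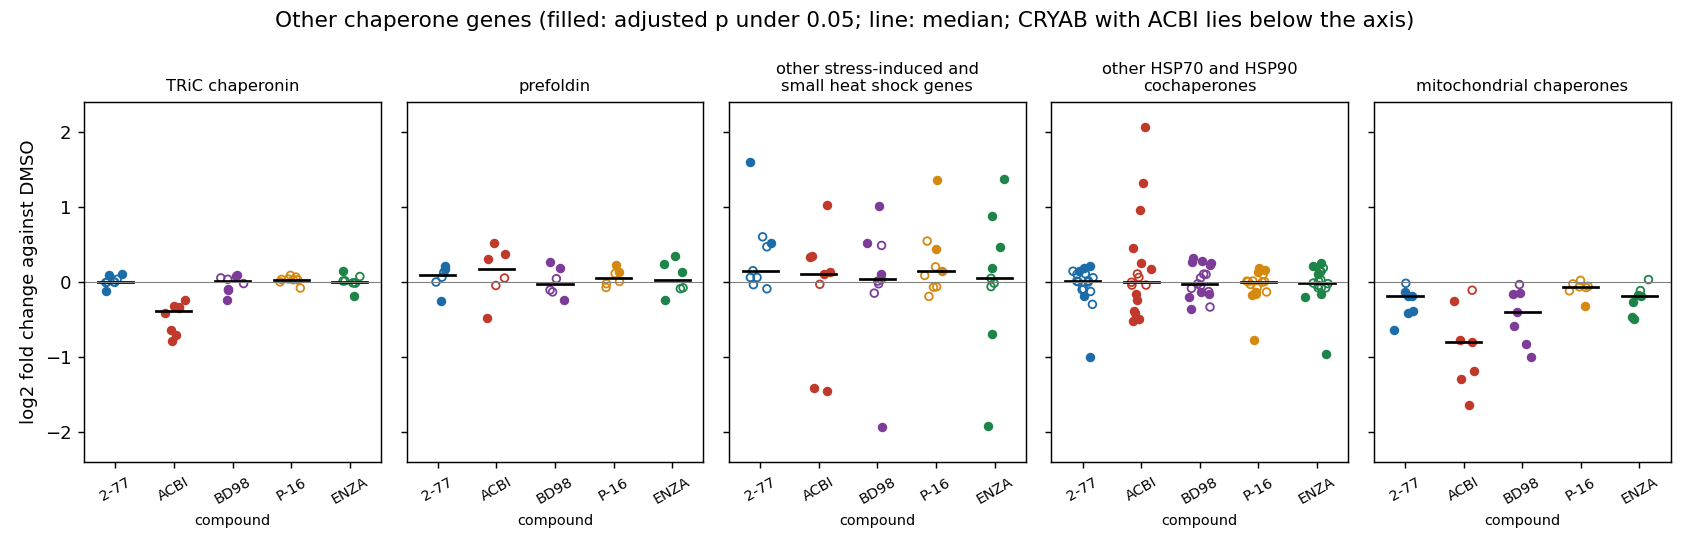
Log2 fold change against DMSO (y axis) of the 47 tested genes of the 5 lists (1 panel each) for each compound (x axis); each point is a gene, filled at an adjusted p under 0.05, and the black line is the median. The 8 TRiC genes with ACBI all lie below 0 (median -0.38); CRYAB with ACBI, with 1 count in all, falls below the axis.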

How the data were processed

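The 18 libraries of messenger RNA (3 per condition, 6 conditions) were made with a stranded kit per the labels' protocols. The deposited table holds expected counts per gene on hg38, which the authors made with STAR and Partek, per the submitters' processing notes; DESeq2 is named there too. The counting program, its use of strand and all versions are not given in the sources used here. Estimated counts (38.2% of values had decimals) were rounded to whole numbers. Columns named SCO277 and PB_16 were taken as 2-77 and P-16.

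Tests used edgeR 4.0.16 in R 4.3.3 (quasi-likelihood with TMM factors, filterByExpr over the 6 groups, robust, all 18 libraries, 12 residual degrees of freedom, common biological coefficient of variation 0.0573), which kept 15422 genes and removed 4723. P-values were adjusted by Benjamini-Hochberg within each contrast, and SE is the log2 fold change divided by the square root of the F statistic. Intervals cover the spread between libraries, and their 95% level is approximate. Alternatives were DESeq2 1.42.0, RLE factors, library totals, no filter, at least 1 CPM in 3 libraries, the groups compared alone, a replicate block, no ribosomal RNA genes, HSPA1A and HSPA1B summed, and each library left out. The same alternatives for the chaperone lists and their named genes were chosen after seeing the data. The main fit was also run on simulated counts with the same spread for every gene and no outlying library. Because the data differ in both respects, that run does not measure error rates here. The deposited end of a gene is 1 base past its last base, and coordinates are printed accordingly.

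Named genes were a panel of 12 with values in every library, the 3 largest rises and 3 largest falls per compound among called genes whose groups did not overlap and whose higher group averaged 4 CPM or more, and 2 of each from the chaperone lists. The members and lists were chosen with earlier results of these data known. Same-number libraries deviated together (correlation over 0.1 in all 3 pairs) in no contrast over all tested genes. Over 10635 genes of higher expression they did so in 2-77 with ACBI alone (0.26, 0.31 and 0.57). In BD98 with DMSO, 2 of the 3 pairs passed that limit over those genes (0.182 and 0.253). The labels name no shared culture, and the main fits did not pair libraries by number. The replicate block gives the calls with the number as a term.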

Additional observations from a re-analysis of the deposited data

How the results depend on the processing

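Of 333 values (37 genes in 9 contrasts), 18 omissions of 1 library gave 5825 refits with the call unchanged, 104 that lost it and 65 that gained one. Over the 8 other settings these numbers were 2580, 35 and 49. No direction reversed among called values. The count of called genes for 2-77 against ENZA, 1, was 2 in DESeq2 and 3 in a fit of these groups alone, and 1 to 4 with 1 library left out (2 without 2-77 replicate 3 or ACBI replicate 1, 4 without ACBI replicate 3). The cause was not tested. With 1 library left out, called genes numbered 23 to 29 for 2-77, 29 to 32 for ACBI, 19 to 30 for BD98, 16 to 21 for P-16 and 18 to 25 for ENZA, each against DMSO. Calls held in all 18 omissions for 22 of 26 genes with 2-77, 28 of 32 with ACBI, 15 of 24 with BD98, 16 of 18 with P-16 and 17 of 21 with ENZA. The replicate block, a model with the replicate number as a term, gave 26 called genes for 2-77, 30 for ACBI, 24 for BD98, 18 for P-16 and 21 for ENZA, and 31, 18, 14 and 1 for 2-77 against ACBI, BD98, P-16 and ENZA. It ended 3 calls (HSPA1A and DNAJB6 with ACBI, FKBP4 in 2-77 against BD98). The numbers mark no shared culture in the labels. The all-gene median moved by less than 0.1 in every scaling. Low counts limit HSPA2, HSPB8, HSPA1A, HSPA6, SERPINH1 and CRYAB.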
